A study of Mus musculus with 8 samples.

Results

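Transcripts of 38 genes of the acrosome and of sperm-egg fusion were measured in whole testes of mice with and without Tmem232, which encodes a transmembrane protein. The genes were chosen by name as a module, with earlier results of these data known. Shares of the module beside those of all genes are thus descriptions and no independent support. All 38 were found by symbol among the 19906 genes of the deposited table. Testes of 4 Tmem232-/- mice and 4 Tmem232+/+ mice, all 2 months old, gave 1 library per mouse. The Tmem232-/- mice came from CRISPR-Cas9 editing of fertilised C57BL/6 oocytes and carry a deletion within Tmem232 that shifts its reading frame, in all tissues. No other allele or agent was named for either genotype, and each genotype is known here by its label.

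The acrosome is a vesicle derived from the Golgi that caps the nucleus of the sperm head. It stores enzymes and binding proteins, and its contents are released by exocytosis near the egg coat, which exposes the membrane proteins that fuse sperm with egg. It is built in round spermatids from Golgi vesicles and takes its final shape in elongating spermatids, and many of its genes are transcribed mainly in germ cells after meiosis. The 38 genes were grouped by role into 6 proteins of the acrosomal matrix, 6 that act on or bind the zona pellucida and the cumulus around the egg, 8 of acrosome formation, 5 lysozyme-like proteins, 11 of sperm-egg fusion and the equatorial segment, and 2 proposed activators of the egg.

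The 8 libraries held between 15428421 and 16350871 counts. Levels per library are CPM, the counts of a gene relative to the library total after TMM scaling, listed in the order of replicates 1 to 4 in each genotype. Comparisons between genes use FPKM, which is also divided by transcript length. Tmem232 itself was examined first and was higher in the libraries labelled Tmem232-/-, at 122 to 148 CPM against 106 to 111 CPM (log2 fold change 0.27), so its count does not check the genotypes, and each library is called by its label. Markers of spermatocytes summed to between 2058 and 2781 CPM and those of Sertoli cells to between 1919 and 2467 CPM over the 8 libraries, while the 5 epididymal markers in the table summed to at most 42.6 CPM, reached in replicate 1 labelled Tmem232+/+. Replicate 3 labelled Tmem232+/+ stood apart from its group over all genes, with a chi-square per degree of freedom of 13.99 to 22.2 against the other 3 libraries, which differed among themselves by 3.70 to 6.41. The pairs labelled Tmem232-/- had 3.53 to 13.2. The median log2 fold change over the 15787 genes tested was -0.05.

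All 38 genes passed the filter on low counts and were tested. In the libraries labelled Tmem232-/-, 25 of the 38 (65.8%) rose at an adjusted p under 0.05 in edgeR's quasi-likelihood test, against 10.3% of all tested genes. None of the 38 fell, against 1.46% of all tested genes. The count of falls was also 0 at an unadjusted p under 0.05, with DESeq2 and with limma-voom. A rise of 2-fold or more was reached by 19 of the 38, against 5.23% of all tested genes, while the share of all genes with a fall of that size was 0.0443%. The 13 genes that did not pass the test had log2 fold changes between -0.14 and 0.24. Between the smallest change that passed, 0.62 for Spaca6, and the largest that did not, 0.24 for Zpbp, lay no gene of the module. Standard errors of the log2 fold change are given as SE. The median log2 fold change of the 38 was 0.98, with a range of -0.14 to 2.70.

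**Figure D1:**
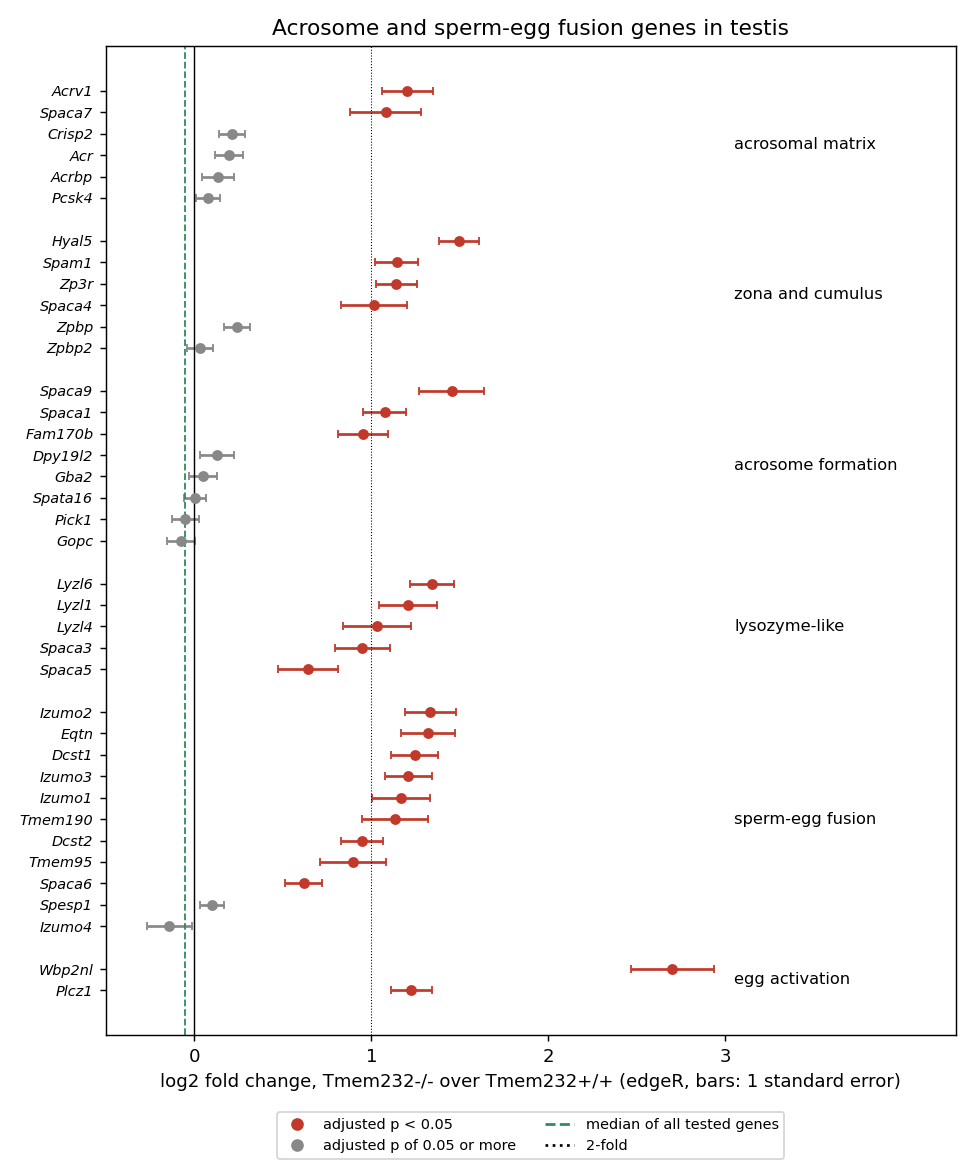
Log2 fold change of each of the 38 genes (horizontal axis, libraries labelled Tmem232-/- over those labelled Tmem232+/+, n = 4 and 4), grouped by role, with bars of 1 standard error from edgeR. The 25 genes in red passed an adjusted p of 0.05 and start at 0.62, the 13 in grey end at 0.24, and the dashed line marks the median of all tested genes at -0.05.

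In 28 of the 38 genes (73.7%) all 4 libraries labelled Tmem232-/- lay above all 4 labelled Tmem232+/+, against 11.8% of all tested genes. No gene had all 4 below, against 6.88% of all tested genes. The 28 hold all 25 genes that passed the test, together with Acr, Crisp2 and Zpbp. For each of the 28 the exact permutation test over the 70 arrangements of the libraries gave a two-sided p of 0.029, the smallest that 4 mice against 4 allow. The genes of the module together took 0.543%, 0.501%, 0.488% and 0.499% of all counts in replicates 1 to 4 labelled Tmem232-/-. In replicates 1 to 4 labelled Tmem232+/+ they took 0.427%, 0.387%, 0.446% and 0.421%. The lowest of the former was thus above the highest of the latter.

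The genes that rose were measured at lower levels than those that did not pass. The 25 had a median of 17.7 FPKM in the libraries labelled Tmem232+/+, with a range of 1.80 to 66.4 FPKM. The 13 that did not pass had a median of 98.3 FPKM there, from 17.2 to 897 FPKM. In the libraries labelled Tmem232-/- the medians were 36.3 and 95.8 FPKM. The 13 were also measured more tightly, with a median standard error of 0.076 on the log2 scale against 0.15 for the 25. The median coefficient of variation between mice of 1 genotype was 14.6% and 20.3% for the 25 genes and 6.32% and 7.07% for the 13, in the order Tmem232-/- and Tmem232+/+.

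**Figure D2:**
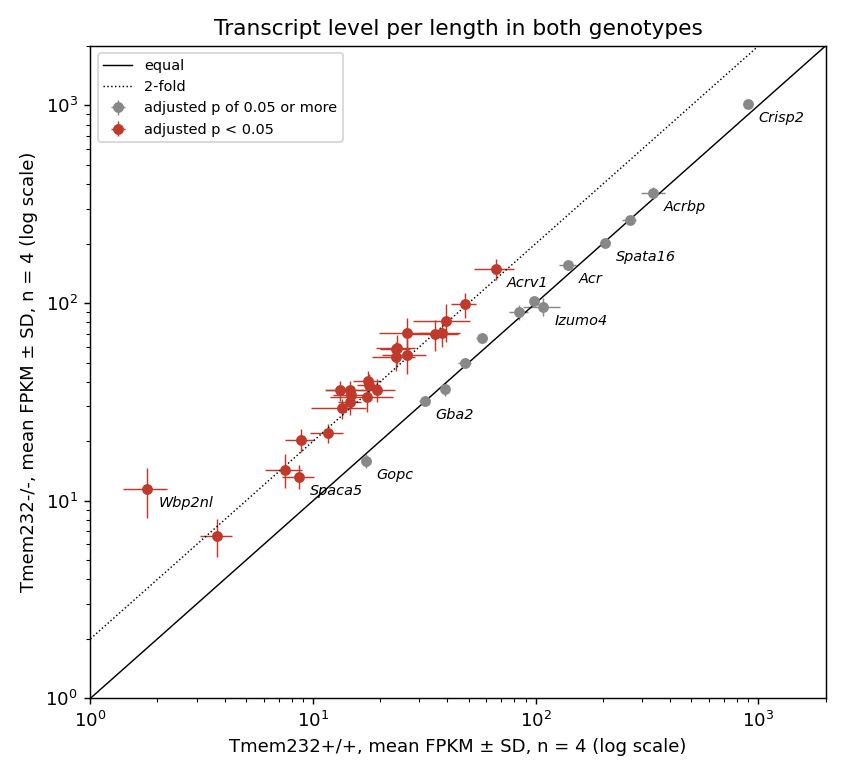
Mean FPKM of each of the 38 genes in the libraries labelled Tmem232+/+ (horizontal axis) and Tmem232-/- (vertical axis), both on log scales, with bars of 1 SD over 4 mice. The 13 grey genes lie on or near the line of equal level up to Crisp2 at the top, and the 25 red genes lie near the line of 2-fold, with Wbp2nl above it at 1.80 and 11.5 FPKM.

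Most listed marker genes of spermatids also rose. The marker lists, like the module, were chosen with earlier results of these data known and give no independent support. All 10 markers of elongating spermatids, a list that holds the protamine and transition protein genes, rose by 2-fold or more, with a median log2 fold change of 2.18. They summed to between 1330 and 2204 CPM in the libraries labelled Tmem232-/- and to between 339 and 680.5 CPM in the others. Of 8 markers of round spermatids, 7 rose, with a median log2 fold change of 1.24 and sums of 395 to 491 CPM against 151 to 235 CPM. Of 7 spermatogonial markers, 3 fell, with sums of 138 to 151 CPM against 164 to 182 CPM. Of 4 markers of peritubular myoid cells, 2 fell, with sums of 189 to 227 CPM against 238 to 283 CPM. The falls in both lists were lost, with 0 left, without replicate 1 labelled Tmem232+/+, while 7 to 8 markers of round and all 10 of elongating spermatids rose in every alternative. Of 6 Leydig cell markers none passed the test, with a median log2 fold change of 0.48 and overlapping sums of 398 to 602 CPM against 240 to 463 CPM, and 0 to 3 of them rose over the alternatives. None of the markers of spermatocytes, Sertoli cells, macrophages, endothelial cells or red blood cells passed the test. Without replicate 4 labelled Tmem232-/- 2 Sertoli markers fell, and without replicate 2 labelled Tmem232-/- 2 red blood cell markers and 1 endothelial marker fell. No marker of any list was at 0 in all libraries. In whole testis, more cells of a type and more RNA per cell cannot be told apart. The part of the cell mixture in the changes of the 38 genes was not tested.

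Within a genotype the same libraries were the highest or lowest for much of the module. Replicate 1 was the highest of those labelled Tmem232-/- in 29 of the 38 genes, and replicate 2 the lowest of those labelled Tmem232+/+ in 36. Among the 25 genes that rose, replicate 2 labelled Tmem232+/+ was the lowest of its genotype in 25, and replicate 3 the highest in 21. The summed markers of elongating spermatids had the same extremes, with 2204, 1753, 1330 and 2064 CPM in replicates 1 to 4 labelled Tmem232-/- and 436, 339, 680.5 and 492 CPM in those labelled Tmem232+/+. With each library left out in turn, between 24 and 27 genes of the module passed as higher and between 15 and 23 rose by 2-fold or more. The fits with 15 were those without replicate 1 labelled Tmem232-/- or without replicate 2 labelled Tmem232+/+, and the fit with 23 was that without replicate 3 labelled Tmem232+/+, in which 27 genes rose.

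**Figure D3:**
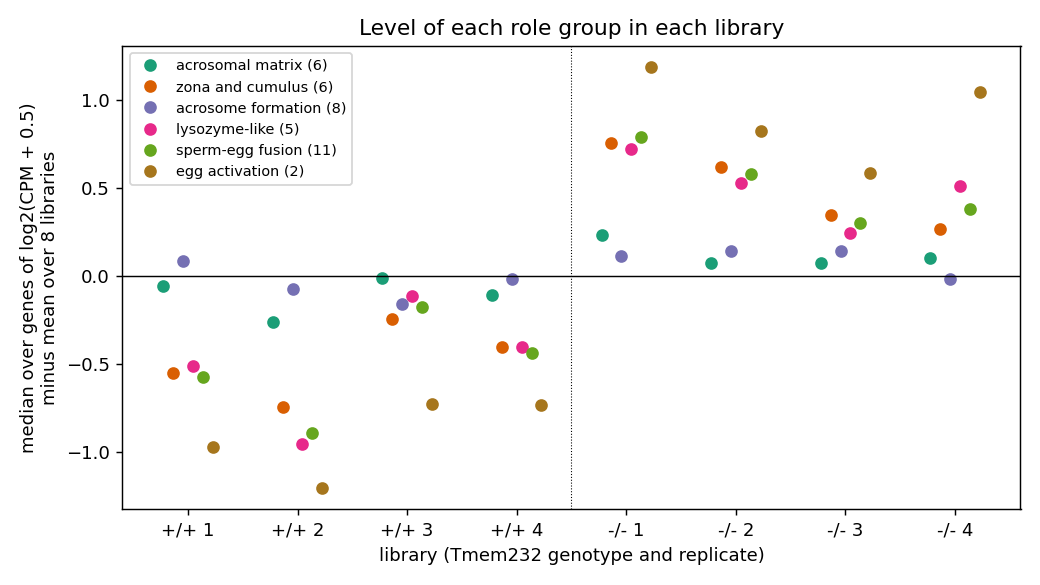
Level of each role group in each of the 8 libraries, as the median over its genes of log2 of CPM plus 0.5 minus the mean over the libraries. The genes of acrosome formation stay between -0.16 and 0.14, the other groups are higher in every library to the right of the dotted line than in any to its left, and the egg activators span -1.20 to 1.18.

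The proteins of the acrosomal matrix divided into 2 genes that rose and 4 that did not pass the test, with a median log2 fold change of 0.20. Acrv1 (Entrez ID 11451, chr9:36693220-36698845 of GRCm38.p6), which encodes the acrosomal vesicle protein SP-10, had 167, 136, 124 and 132 CPM in the libraries labelled Tmem232-/- and 58.5, 44.7, 73.8 and 65.2 CPM in those labelled Tmem232+/+. The means were 139 ± 19.0 and 60.6 ± 12.3 CPM (SD, n = 4 each), a log2 fold change of 1.20 (SE 0.14, adjusted p = 0.000161 in edgeR). Every library labelled Tmem232-/- stood well above the others, and replicate 2 labelled Tmem232+/+ was the lowest. Acrv1 had the highest level per length of the genes that rose, 149 ± 18.4 against 66.4 ± 13.5 FPKM. Spaca7, whose product is released from the acrosome, had 63.9, 42.5, 38.3 and 50.2 CPM in the libraries labelled Tmem232-/- and 19.2, 16.7, 31.5 and 24.8 CPM in the others. Its change on the log2 scale was 1.08 (SE 0.20, adjusted p = 0.00358), and the gap between the genotypes was narrow, since replicate 3 labelled Tmem232+/+ came close to replicate 3 labelled Tmem232-/-.

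Crisp2 (Entrez ID 22024, chr17:40764734-40794146), which encodes a cysteine-rich protein of the acrosome and the sperm tail, was the most abundant transcript of the module, at 1015 ± 44.4 against 897 ± 38.9 FPKM. It had 1436, 1293, 1320.4 and 1254 CPM in the libraries labelled Tmem232-/- and 1226, 1053, 1153 and 1144 CPM in those labelled Tmem232+/+. The genotypes did not overlap, but the log2 fold change was 0.21 and did not pass the test over all genes (SE 0.072, adjusted p = 0.0868 in edgeR, range 0.011 to 0.208 over the alternatives). It passed with DESeq2 (adjusted p = 0.011) and, in edgeR, without a filter on low counts (adjusted p = 0.042). In edgeR it also passed without replicate 4 labelled Tmem232-/- (adjusted p = 0.0445) or replicate 1 labelled Tmem232+/+ (adjusted p = 0.0382). Acr, the gene of the protease acrosin, did not overlap either, with a log2 fold change of 0.20 (SE 0.079, adjusted p = 0.151, range 0.036 to 0.322), and passed at the lower end of this range without replicate 3 labelled Tmem232+/+. Acrbp, which encodes the protein that holds proacrosin in the acrosome, had a log2 fold change of 0.13 (SE 0.09, adjusted p = 0.397) with overlapping genotypes. Pcsk4, the gene of a proprotein convertase of the acrosome, had one of 0.077 (SE 0.07, adjusted p = 0.527), also with overlap. The fold changes were 1.15 for acrosin and 1.10 for its binding partner, against 2.30 for Acrv1 of the same compartment.

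Of the 6 genes that act on the zona pellucida or the cumulus, 4 rose by 2-fold or more and 2 did not pass the test, with a median log2 fold change of 1.08. Hyal5 (chr6:24857937-24891959) and Spam1 (chr6:24791188-24801048) encode hyaluronidases, enzymes that loosen the cumulus, and lie 56.9 kb apart on chromosome 6. Hyal5 had 77.4, 74.7, 69.5 and 56.8 CPM in the libraries labelled Tmem232-/- and 22.9, 21.4, 28.0 and 26.5 CPM in those labelled Tmem232+/+. The means of 69.6 ± 9.14 and 24.7 ± 3.09 CPM (SD, n = 4 each) gave a log2 fold change of 1.49 (SE 0.12), with the lowest adjusted p of the module at 2.11e-05 in edgeR. Spam1, also known as PH-20, had 68.4, 66.8, 64.4 and 48.1 CPM against 26.1, 24.8, 31.2 and 30.2 CPM in the same order of libraries. This gave a log2 fold change of 1.14 (SE 0.12, adjusted p = 7.71e-05). In both hyaluronidase genes replicate 4 was the lowest of the libraries labelled Tmem232-/-, and it still had well over the level of any library labelled Tmem232+/+.

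Since both neighbours rose, the bases before their starts are shown, from RefSeq's promoter table of GRCm38.p6 on the plus strand. The window of Spam1 is chr6:24790938-24791187, the 250 bases before its start. That of Hyal5 is chr6:24857747-24857936 and ends before the first base of any RefSeq transcript of the gene. The capitals mark the longest run of bases that both windows share, 18 bases at 52 to 35 before the start of Spam1 and at 91 to 74 before the start that the table gives for Hyal5. No other gene of the 27025 in the table holds this run in its 250 bases on either strand. The run was picked as the longest that these windows share, and so long a run is seldom met elsewhere. Its absence from other genes therefore does not mark it as a site, and a part in the rise was not tested.
Spam1: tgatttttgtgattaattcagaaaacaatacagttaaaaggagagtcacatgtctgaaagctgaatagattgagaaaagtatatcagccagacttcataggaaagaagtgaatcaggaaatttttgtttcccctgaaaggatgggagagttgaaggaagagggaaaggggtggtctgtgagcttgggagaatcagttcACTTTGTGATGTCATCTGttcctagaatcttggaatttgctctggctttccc
Hyal5: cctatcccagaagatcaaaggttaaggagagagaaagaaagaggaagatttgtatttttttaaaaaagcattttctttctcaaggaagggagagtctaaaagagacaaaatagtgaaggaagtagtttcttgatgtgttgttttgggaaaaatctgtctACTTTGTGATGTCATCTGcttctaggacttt

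Zp3r, which encodes the acrosomal matrix protein sp56 named for binding to the zona, had 85.5, 78.0, 68.4 and 61.3 CPM in the libraries labelled Tmem232-/- and 31.8, 28.7, 34.8 and 37.5 CPM in those labelled Tmem232+/+. On the log2 scale the change was 1.14 (SE 0.11, adjusted p = 5.95e-05 in edgeR), with a wide gap between the genotypes. Spaca4, whose product on the sperm head takes part in binding and crossing the zona, had 47.0, 39.0, 30.4 and 34.9 CPM against 18.5, 12.4, 24.6 and 19.4 CPM. The log2 fold change was 1.01 (SE 0.19, adjusted p = 0.00338), and replicate 3 of each genotype came nearest to the other. Spaca4 overlaps Fam83e in RefSeq. Zpbp2 and Zpbp, whose products bind the zona and help to compact the acrosome, did not pass. They were the most abundant of the group in FPKM averaged over all libraries. In the libraries labelled Tmem232-/- Spaca4 was above Zpbp, at 69.5 against 66.7 FPKM. Zpbp2 had 362, 334, 321 and 330.3 CPM against 343, 302, 357 and 317 CPM, a log2 fold change of 0.031 (SE 0.073, adjusted p = 0.824) that turned negative with scaling by library size alone. The libraries of both genotypes were interleaved for Zpbp2. Zpbp had a log2 fold change of 0.24 (SE 0.073, adjusted p = 0.0566, range 0.0071 to 0.153 over the alternatives) without overlap. Its adjusted p was the lowest among the genes that did not pass. It was 0.0071 with DESeq2. In edgeR it was 0.0236 without a filter on low counts and 0.038 with DESeq2 size factors. It reached 0.0338 without replicate 4 labelled Tmem232-/-. Of the libraries labelled Tmem232+/+, leaving out replicate 1 gave 0.0247 and leaving out replicate 3 gave 0.0302.

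Acrosome formation was the group with the smallest change. Of its 8 genes, 3 rose and 5 did not pass, and the median log2 fold change was 0.088. Spaca1 (chr4:34024872-34050067), whose membrane protein is needed to shape the acrosome, had 110.3, 94.0, 84.3 and 77.0 CPM in the libraries labelled Tmem232-/- and 44.2, 35.4, 48.4 and 45.5 CPM in those labelled Tmem232+/+. The fitted log2 fold change was 1.07 (SE 0.12, adjusted p = 0.000129 in edgeR), and replicate 1 was the highest of all libraries. Spaca9, which encodes a protein of the acrosome that also binds ciliary microtubules, had 42.6, 30.7, 29.1 and 40.7 CPM against 13.6, 9.26, 17.3 and 12.0 CPM. With a log2 fold change of 1.45 (SE 0.18, adjusted p = 0.000243) it changed most in this group, and replicates 1 and 4 labelled Tmem232-/- were higher than the other two. Spaca9 shares its interval with Ak8 in RefSeq. Fam170b, which encodes an acrosomal protein, had 66.6, 55.7, 47.9 and 54.0 CPM against 26.7, 22.3, 36.1 and 30.8 CPM. Its log2 fold change of 0.95 (SE 0.14, adjusted p = 0.000785) lay just under the limit of 2-fold.

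Besides a glucosylceramidase, the 5 genes of acrosome formation that did not pass encode proteins of the Golgi, vesicle traffic and the nuclear envelope. Spata16 (chr3:26637620-26983249), a gene of a Golgi protein of spermatids linked to round-headed sperm, was the most abundant of the group at 201 ± 3.55 against 205 ± 7.20 FPKM. It had 372, 369, 379 and 365 CPM in the libraries labelled Tmem232-/- and 399, 350.0, 361 and 370.0 CPM in the others. Its change on the log2 scale was 0.005 (SE 0.063, adjusted p = 0.969) and turned negative with scaling by library size alone. All 4 libraries labelled Tmem232-/- lay inside the range of the others. Dpy19l2, which encodes the protein of the inner nuclear membrane that anchors the acrosome, had a log2 fold change of 0.13 (SE 0.10, adjusted p = 0.443). Gba2, the gene of a glucosylceramidase outside the lysosome, had 0.047 on the same scale (SE 0.079, adjusted p = 0.749). Gopc, which encodes a Golgi protein of vesicle transport, had -0.077 (SE 0.079, adjusted p = 0.577). Pick1, the gene of a partner of Gopc in vesicle traffic to the acrosome, had -0.053 (SE 0.076, adjusted p = 0.705). In all 4 of these genes the genotypes overlapped.

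All 5 lysozyme-like genes rose, 3 of them by 2-fold or more, with a median log2 fold change of 1.03. Their products share the fold of lysozyme and lie in the acrosome or on the sperm head. Spaca3, whose product SLLP1 binds the egg membrane, was the most abundant in FPKM, with 54.3, 47.4, 35.7 and 46.8 CPM in the libraries labelled Tmem232-/- and 20.9, 19.1, 30.3 and 25.2 CPM in those labelled Tmem232+/+. This gave a log2 fold change of 0.95 (SE 0.15, adjusted p = 0.00146 in edgeR). Lyzl6, of the same lysozyme-like family, had 39.7, 46.4, 41.4 and 38.2 CPM against 18.8, 12.4, 16.1 and 18.1 CPM, and here replicate 2 was the highest. It had the largest change of the group, a log2 fold change of 1.34 (SE 0.12, adjusted p = 3.79e-05). Lyzl1, the gene of another of these proteins, had 45.1, 35.0, 32.5 and 33.1 CPM against 16.4, 11.3, 19.9 and 15.4 CPM, with a log2 fold change of 1.21 (SE 0.16, adjusted p = 0.000361). Lyzl4, whose product has lost the catalytic activity of lysozyme, had 35.1, 27.4, 23.1 and 27.9 CPM against 11.6, 9.81, 19.3 and 14.8 CPM. On the log2 scale the change was 1.03 (SE 0.19, adjusted p = 0.00358), and replicate 3 labelled Tmem232+/+ was nearest to the other genotype.

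Spaca5, the only gene of the module on the X chromosome, had the highest adjusted p of those that passed. It had 6.26, 4.90, 4.68 and 4.61 CPM in the libraries labelled Tmem232-/- and 3.55, 2.66, 3.93 and 2.95 CPM in those labelled Tmem232+/+. The levels were low and the gap between the genotypes was small. Its log2 fold change of 0.64 (SE 0.17, adjusted p = 0.0278) no longer passed without replicate 1 or 2 labelled Tmem232-/- (adjusted p = 0.0876 and 0.0589), nor without replicate 2 or 4 labelled Tmem232+/+ (adjusted p = 0.0829 and 0.0895). The adjusted p of Spaca5 ranged from 0.0105 to 0.0895 over the alternatives.

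Sperm-egg fusion, the largest group, had 9 genes that rose and 2 that did not pass among 11, with a median log2 fold change of 1.13. Several of its genes encode membrane proteins of the sperm head that mouse sperm need in order to fuse with the egg. Izumo1 (Entrez ID 73456, chr7:45621811-45627242), which encodes the sperm ligand of the egg receptor JUNO, had 44.6, 37.2, 33.7 and 38.7 CPM in the libraries labelled Tmem232-/- and 15.5, 12.2, 23.2 and 17.7 CPM in those labelled Tmem232+/+. The means were 38.5 ± 4.54 and 17.2 ± 4.64 CPM (SD, n = 4 each), a log2 fold change of 1.17 (SE 0.17, adjusted p = 0.00055 in edgeR). Replicate 3 labelled Tmem232+/+ stood above its group and still below every library labelled Tmem232-/-. Izumo2, a relative of Izumo1 in the same protein family, had 22.9, 19.5, 17.7 and 19.7 CPM against 6.60, 6.42, 9.56 and 9.09 CPM, with a log2 fold change of 1.33 (SE 0.15, adjusted p = 9.52e-05). Izumo3, whose product is needed to form the acrosome, had 42.9, 37.0, 31.9 and 33.7 CPM against 15.3, 12.6, 19.1 and 15.97 CPM. The log2 fold change was 1.21 (SE 0.13, adjusted p = 9.80e-05).

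Izumo4, the member of this family without a membrane anchor, was the only Izumo gene that did not pass. It was the most abundant of them per length, at 95.8 ± 9.82 FPKM in the libraries labelled Tmem232-/- and 108 ± 20.9 FPKM in those labelled Tmem232+/+. In CPM it had 80.9, 69.9, 69.7 and 84.0 against 81.2, 68.1, 107 and 79.8, and the genotypes overlapped (exact permutation test, two-sided p = 0.6). The fitted log2 fold change was -0.14 (SE 0.13, adjusted p = 0.516 in edgeR), and it became 0.026 without replicate 3 labelled Tmem232+/+, the highest library. The difference between the changes of Izumo4 and the other Izumo genes was not tested.

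The 250 bases before the start of Izumo1, chr7:45621561-45621810 of GRCm38.p6 on the plus strand, are shown because they hold the only full cAMP response element found in the module. This element, TGACGTCA, was searched for on both strands, and is the motif bound by the CREB family, to which the spermatid activator CREM belongs. It starts 96 bases before the start of Izumo1. The capitals mark it and 2 copies of CCAAT.
Izumo1: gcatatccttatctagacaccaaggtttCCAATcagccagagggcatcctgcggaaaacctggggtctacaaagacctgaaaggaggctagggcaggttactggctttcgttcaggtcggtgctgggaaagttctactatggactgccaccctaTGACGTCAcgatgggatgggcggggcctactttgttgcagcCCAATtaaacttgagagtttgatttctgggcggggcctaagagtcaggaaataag

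Windows of this length were found in RefSeq's table for 31 of the 38 genes, and not for Acr, Eqtn, Izumo4, Lyzl1, Pcsk4, Plcz1 or Wbp2nl. The full element was found in 1 of the 31 and in 1.77% of all 27025 genes of the table. Its half-site TGACG, which the full element contains, was found in 8 of the 31, of which 5 rose and 3 did not pass, and in 19.8% of all genes. CCAAT was found in 10, of which 7 rose and 3 did not pass, and in 37.5% of all genes. TATAAA was found in 2, namely Spaca7, which rose, and Crisp2, which did not pass, and in 14.3% of all genes. Of the genes with a window, 21 rose and 10 did not pass. These matches of letters describe the windows and were not tested as sites.

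Dcst1 and Dcst2 encode membrane proteins that act together on the sperm surface, and both rose. Their starts in the table lie on opposite strands of chromosome 3, with 65 bases between them at chr3:89365254-89365318 of GRCm38.p6. This stretch is printed here on the plus strand because it lies between both starts. It also lies inside the whole interval that RefSeq gives Dcst2, chr3:89350417-89377643.
Dcst1 and Dcst2: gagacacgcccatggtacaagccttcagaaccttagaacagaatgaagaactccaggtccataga
Dcst1 had 50.0, 50.1, 40.5 and 37.6 CPM in the libraries labelled Tmem232-/- and 19.1, 14.7, 20.5 and 20.9 CPM in those labelled Tmem232+/+. Its change on the log2 scale was 1.24 (SE 0.13, adjusted p = 8.27e-05 in edgeR). Dcst2 had 54.4, 52.1, 43.0 and 44.9 CPM against 23.4, 21.2, 30.7 and 25.5 CPM, a log2 fold change of 0.95 (SE 0.12, adjusted p = 0.000241). Replicates 1 and 2 labelled Tmem232-/- were the highest for both genes. RefSeq has the intervals of Dcst1 and Dcst2 overlap beyond these starts, and without a statement that strand was used in counting, reads of the overlap cannot be told apart.

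Eqtn, which encodes equatorin of the acrosomal membrane, had 81.9, 64.6, 54.3 and 59.3 CPM in the libraries labelled Tmem232-/- and 24.3, 20.2, 32.0 and 27.8 CPM in those labelled Tmem232+/+. This gave a log2 fold change of 1.32 (SE 0.15, adjusted p = 0.000142 in edgeR), with replicate 1 highest. Tmem190, whose product lies on the inner acrosomal membrane, had 29.4, 21.3, 17.6 and 26.8 CPM against 9.91, 8.11, 13.9 and 11.4 CPM. On the log2 scale the change was 1.13 (SE 0.19, adjusted p = 0.00153), and replicate 3 of each genotype came nearest to the other. Tmem190 overlaps Il11 in RefSeq. Tmem95, which encodes a membrane protein needed for fusion, was the lowest gene of the module in FPKM averaged over all libraries, with 4.06, 4.64, 3.42 and 3.93 CPM against 1.99, 1.57, 2.66 and 2.40 CPM. The log2 fold change was 0.90 (SE 0.19, adjusted p = 0.00757).

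Spaca6, whose product is needed for fusion, had 40.4, 31.8, 29.9 and 30.8 CPM in the libraries labelled Tmem232-/- and 21.3, 20.6, 23.0 and 21.7 CPM in those labelled Tmem232+/+. The latter were tightly grouped, and replicate 1 labelled Tmem232-/- stood above its group. The log2 fold change was 0.62 (SE 0.10, adjusted p = 0.00162 in edgeR). It was larger per length, where the means were 14.4 ± 2.82 against 7.51 ± 1.41 FPKM and the log2 fold change of FPKM plus 0.1 was 0.92. Spaca6 overlaps Has1 in RefSeq. Spesp1, which encodes a protein of the equatorial segment, was at 103 ± 4.60 against 98.3 ± 2.33 FPKM. The fitted log2 fold change was 0.10 (SE 0.068, adjusted p = 0.407), with overlapping genotypes.

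Both proposed activators of the egg rose by 2-fold or more. Wbp2nl (Entrez ID 74716, chr15:82298925-82314647), which encodes the protein PAWP behind the acrosome, had the largest change of the module. It had 15.97, 11.9, 8.85 and 16.9 CPM in the libraries labelled Tmem232-/- and 1.87, 1.51, 2.41 and 2.46 CPM in those labelled Tmem232+/+. Replicates 1 and 4 labelled Tmem232-/- were the highest and replicate 3 the lowest of them, and even that library was far above the other genotype. The means were 13.4 ± 3.73 and 2.06 ± 0.452 CPM (SD, n = 4 each), a 6.49-fold rise with a log2 fold change of 2.70 (SE 0.23, adjusted p = 3.02e-05 in edgeR). Plcz1 (chr6:139987396-140041488), the gene of the phospholipase that sperm carry into the egg to start its calcium oscillations, had 107, 85.9, 81.6 and 82.9 CPM against 37.1, 31.5, 42.5 and 41.6 CPM. Its change on the log2 scale was 1.23 (SE 0.11, adjusted p = 4.12e-05), and the other libraries labelled Tmem232-/- lay close together under replicate 1.

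**Figure D4:**
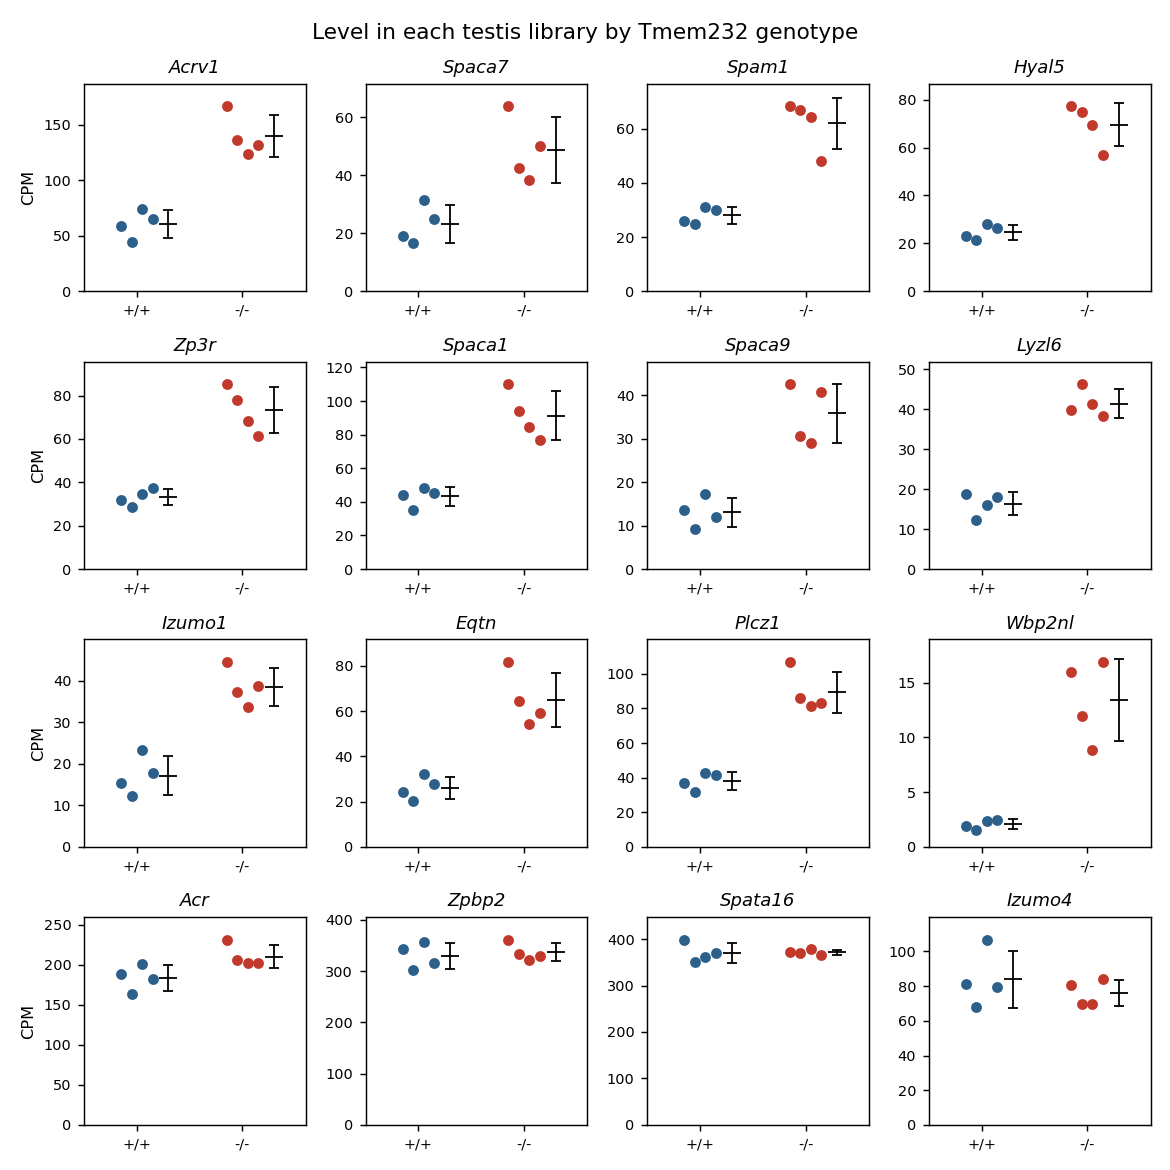
CPM of 16 genes of the module in each library (vertical axes, starting at 0), with 4 points for each genotype in the order of the replicates and the mean ± SD beside them. The genotypes are apart in the upper 3 rows, where Wbp2nl has at most 2.46 CPM in the libraries labelled Tmem232+/+ and at least 8.85 CPM in the others, while Zpbp2, Spata16 and Izumo4 overlap and Acr is apart by a small step.

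The genes of the module lie on 15 chromosomes. Besides Spam1 with Hyal5 and Dcst1 with Dcst2, Spaca4 and Izumo1 lie 97.9 kb apart and Izumo1 and Izumo2 lie 902 kb apart on chromosome 7. All 3 rose, as did 25 of the 38 genes in all. A link between position and change was not tested. Pcsk4 and Izumo4 lie 372 kb apart on chromosome 10, and neither passed the test. Of the other genes that did not pass, RefSeq has Zpbp overlap Spata48, Dpy19l2 overlap Cypt4, and Gba2 overlap Creb3 and Rgp1.

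Other genes of the acrosome and of fertilization were examined from a list of 36 that were found in the table and tested. Of these, 12 rose, against 10.3% of all tested genes, and 10 rose by 2-fold or more, against 5.23%. A further 2 fell, against 1.46%, and this count was 0 with DESeq2 size factors, without a filter on low counts and in most fits without 1 library. Their median log2 fold change was 0.084, with a range of -0.29 to 3.45. Prss37, which encodes a protease-like protein of the testis needed for fertility, changed most, with 46.5, 31.9, 24.8 and 46.0 CPM in the libraries labelled Tmem232-/- and 2.55, 1.45, 6.40 and 3.32 CPM in those labelled Tmem232+/+ (log2 fold change 3.45, adjusted p = 5.95e-05 in edgeR). Tmem81, whose product binds IZUMO1 and SPACA6, had 10.5, 7.28, 7.46 and 8.48 CPM against 0.312, 0.00, 4.94 and 1.35 CPM (log2 fold change 2.36, adjusted p = 0.0416). Its libraries labelled Tmem232+/+ ranged from no count to nearly 5 CPM, and its log2 fold change was 3.94 without replicate 3 of these and 1.84 to 4.04 over the alternatives. The adjusted p of Tmem81 was 0.00017 to 0.259 over the alternatives, with the highest value from DESeq2, and it was also above 0.05 when any 1 library labelled Tmem232-/-, or replicate 1 or 4 of the other genotype, was left out. The next largest rises were those of Cd46, a complement regulator of the inner acrosomal membrane (1.84), Fam71f1 (1.71), which takes part in acrosome formation, and 4930451I11Rik (1.45), whose product FIMP acts in fusion. The 2 that fell, Tex101 (-0.29, adjusted p = 0.0451) and Ly6k (-0.29, adjusted p = 0.043), encode partner proteins on the surface of germ cells. Tex101 no longer passed without any 1 of the 8 libraries (adjusted p = 0.0573 to 0.144), and Ly6k passed only without replicate 4 labelled Tmem232-/- among those 8 fits (0.0298 to 0.144).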

How the data were processed

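RNA from whole testes of 8 mice was sequenced in pairs of reads from TruSeq libraries, whose use of strand is not given in the sources used here. According to the submitters' processing notes and the paper's methods, the authors mapped reads to GRCm38.p6 with HISAT and Bowtie2 and counted them with StringTie and featureCounts. The deposited estimated counts carry no normalization, and in each library 10.7% to 11.2% of genes have a fractional count. The deposited FPKM values were scaled by the authors to library and transcript length. Deposited log2 fold changes, p-values and q-values of the authors' own DESeq2 comparison were not used.

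Counts were rounded and analysed with edgeR 4.0.16 in R 4.3.3 (TMM, its default filter on low counts, quasi-likelihood test, no covariates), with Benjamini-Hochberg adjustment over 15787 genes. Single genes were also compared by a two-sided exact permutation test of CPM over 70 arrangements. Steps were tested on simulated data. Alternatives were DESeq2 1.42.0, limma 3.58.1 (voom, or log2 of FPKM plus 1 or 0.1), other scalings and filters, a block for the replicate number, and fits without 1 library each. The members, role groups, marker lists and related genes were chosen with earlier results of these data known, so they give no independent support. CPM of every library is given for genes that passed, at most 25, and for the gene with the highest mean FPKM of each role group. Genes with a log2 fold change of at least 1 that did not pass would have been included, and there were none. Of the related genes, up to 5 in each direction are named. Gene positions and promoter windows are from RefSeq (GRCm38.p6), and figures were drawn with matplotlib 3.10.9.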

Additional observations from a re-analysis of the deposited data

Results flagged for a closer look

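Among the 38 genes, single libraries stood apart from the other 3 of their genotype by Dixon's criterion at its 95% level in 4 of 76 groups of 4 libraries, and chance gives about 1 in 20. Replicate 1 labelled Tmem232-/- was high in 3 of these 4, with 231 CPM for Acr, 76.5 CPM for Pick1 and 107 CPM for Plcz1. Replicate 3 labelled Tmem232-/- was low in the fourth, with 112 CPM for Pcsk4.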

How the results depend on the processing

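The count of genes that rose stayed between 24 and 27 over the 18 alternatives of scaling, filter, test, unit, block and left-out library, and was 19 at an unadjusted p under 0.05 with a fold change of 2 or more. The count of genes that fell was 0 in each of them, and the median log2 fold change lay between 0.86 and 1.14. Of the 25 genes that rose, 24 kept their call in all 18. Same-numbered libraries did not deviate together (correlations of -0.332 to 0.0716). The labels give them no link beyond the number, and so few pairs cannot exclude a shared origin. With the replicate block, 24 genes rose and Spaca5 was the one lost (adjusted p = 0.057 in edgeR). With it 3 Leydig cell markers rose, and Tex101 and Ly6k no longer passed (adjusted p = 0.133 and 0.143). Of the 13 genes that did not pass, 10 stayed so. Acr passed without replicate 3 labelled Tmem232+/+, Crisp2 passed in 4 alternatives and Zpbp in 6. Changes near 0 turned in sign. Zpbp2 had -0.0033 with library size alone, -0.0065 with FPKM plus 1 or plus 0.1, and -0.0097 to 0.10 with libraries left out. Spata16 had -0.028, -0.024 and -0.024 in the same 3 settings and -0.021 to 0.082 with libraries left out. Over the left-out libraries Pick1 ranged from -0.12 to 0.0032 and Izumo4 from -0.23 to 0.026. Acrbp and Pcsk4 kept their sign in the same fits, at 0.070 to 0.24 and 0.047 to 0.15. So did Dpy19l2 with 0.091 to 0.23, Gba2 with 0.022 to 0.15, Spesp1 with 0.060 to 0.17 and Gopc with -0.13 to -0.0066. The cause of these shifts was not tested. Scaling by library size alone moved the median of all genes from -0.05 to -0.09, and DESeq2 size factors moved it to -0.03. Wbp2nl and Tmem95 had the lowest counts of the module in a single library, 25 and 26. Counts per gene cannot separate transcripts of overlapping genes.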
